A study of Mus musculus and Rattus norvegicus with 28 samples.

Results

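The 10 genes described here encode secreted proteins: the acute phase genes Saa3 and Lcn2, the cytokine Il6, the CXC chemokines Cxcl1, Cxcl2, Cxcl5 and Cxcl12, and the CC chemokines Ccl2, Ccl7 and Ccl11. They were taken by gene symbol from 55450 genes in the mouse files and 32623 in the rat files, where 8 of the 10 symbols occurred and Saa3 and Cxcl5 did not. Saa3 and Cxcl5 were chosen from these data for their rise at P7, so their differences with E18.5 or P7 libraries are given as a description without a test. Cardiomyocytes were isolated from left ventricles of wild-type C57BL/6 mice, males and females, at embryonic day 18.5 (E18.5) and at postnatal days 1, 3 and 7 (P1, P3 and P7), with 2 RNA-seq and 2 ATAC-seq libraries per time point. Neonatal ventricular cardiomyocytes of P1 Sprague Dawley rats were plated and, a day later, given DMSO or 100 nM trichostatin A (TSA), an inhibitor of histone deacetylases, with 3 RNA-seq libraries per treatment. The tissue was digested with trypsin in the cold and then with collagenase, and attached non-cardiomyocytes were removed by pre-plating, so every library is RNA or chromatin of a cell suspension or a culture and not of intact tissue. The sources do not say whether a library pooled several animals, so p-values measure the spread between libraries.

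Chemokines are small secreted proteins that attract leukocytes through receptors with 7 membrane passes. CXC chemokines such as Cxcl1, Cxcl2 and Cxcl5 bind Cxcr2 and draw neutrophils. Cxcl12 binds Cxcr4 and Ackr3 and guides progenitors, coronary vessel cells and leukocytes. The CC chemokines Ccl2 and Ccl7 bind Ccr2 and draw monocytes, and Ccl11 binds Ccr3 and draws eosinophils. Acute phase proteins rise in injury and infection. Saa3 is a serum amyloid A made outside the liver, and Lcn2 binds bacterial siderophores and so withholds iron. Il6 signals through Il6ra and Il6st to Stat3. Transcription of many of these genes is induced by the factors NF-kB, C/EBP and AP-1 downstream of Tnf, Il1b or Toll-like receptors.

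Promoters of the 4 members below are shown because they hold the motifs searched for and because 2 of them, Il6 and Cxcl1, carried open chromatin in most libraries, while Saa3 carried none. Each is the 250 bases before the RefSeq start on GRCm38.p6, which numbers chromosomes as mm10 does, written 5′ to 3′ on the gene's strand, with motif matches in capitals. Il6 is at chr5:30012864-30013113 (+), Cxcl1 at chr5:90890995-90891244 (+), Cxcl2 at chr5:90903649-90903898 (+) and Saa3 at chr7:46715677-46715926 (-).
Il6: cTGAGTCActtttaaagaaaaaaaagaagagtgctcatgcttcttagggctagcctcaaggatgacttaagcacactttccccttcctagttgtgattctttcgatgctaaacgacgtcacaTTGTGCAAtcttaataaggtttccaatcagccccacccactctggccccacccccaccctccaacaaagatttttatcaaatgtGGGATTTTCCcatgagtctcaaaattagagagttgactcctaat
Cxcl1: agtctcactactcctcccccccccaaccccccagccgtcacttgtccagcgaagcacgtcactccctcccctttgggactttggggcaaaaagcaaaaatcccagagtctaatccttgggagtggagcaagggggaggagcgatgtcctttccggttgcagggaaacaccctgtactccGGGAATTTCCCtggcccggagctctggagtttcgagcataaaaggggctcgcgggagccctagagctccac
Cxcl2: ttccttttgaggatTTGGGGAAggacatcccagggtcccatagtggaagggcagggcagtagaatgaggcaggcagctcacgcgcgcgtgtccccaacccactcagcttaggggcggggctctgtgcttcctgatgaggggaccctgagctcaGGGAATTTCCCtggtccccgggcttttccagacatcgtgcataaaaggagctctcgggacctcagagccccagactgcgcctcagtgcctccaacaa
Saa3: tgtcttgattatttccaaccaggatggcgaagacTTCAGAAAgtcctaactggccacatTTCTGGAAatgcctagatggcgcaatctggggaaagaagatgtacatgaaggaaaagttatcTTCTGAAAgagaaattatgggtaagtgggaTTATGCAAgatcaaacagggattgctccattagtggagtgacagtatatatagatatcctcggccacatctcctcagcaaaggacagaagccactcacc
The motifs were searched on both strands: AP-1 (TGACTCA), C/EBP (TTNNGNAA), the degenerate NF-kB motif and the TATA box (TATAAA). NF-kB matches stood in the promoters of Il6, Cxcl1 and Cxcl2, 3 of the 6 members with a RefSeq promoter, and in 7.25% of the 32851 promoters of the table over the same 250 bases. In Cxcl1 and Cxcl2 the match read on either strand, in a pair of overlapping positions 71 to 61 and 97 to 87 bases before the start, and in Il6 it lay 44 to 35 bases before the start. C/EBP matches stood in Saa3, Lcn2, Il6 and Cxcl2, with 4 of them in Saa3, but 36.8% of all promoters held such a match. The AP-1 match was in Il6, against 4.46% of all promoters, and TATAAA was found in none of the 6 members, against 12.4%. A match is a run of letters and no evidence of binding. Cxcl5, Ccl2, Ccl7 and Ccl11 have no entry in the RefSeq promoter table used.

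Members lay in 2 chemokine clusters and on 4 single sites of mm10. Cxcl5 (chr5:90759360-90761624), Cxcl1 (chr5:90891241-90893115) and Cxcl2 (chr5:90903871-90905938) followed each other on the plus strand, with 132 kb between the starts of the first pair and 12.6 kb between those of the second. Ccl2 (chr11:82035571-82037453), Ccl7 (chr11:82045712-82047525) and Ccl11 (chr11:82057823-82062955) were 10.1 and 12.1 kb apart, also on the plus strand. Il6 (chr5:30013114-30019981) was on the plus strand 60.7 Mb before Cxcl5, Cxcl12 (chr6:117168535-117181367) on the plus strand, and Lcn2 (chr2:32384633-32388252) and Saa3 (chr7:46711998-46715700) on the minus strand. All 10 are protein-coding genes in the GENCODE annotation.

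RNA levels are FPKM, fragments scaled by transcript length and by the mapped fragments of the library, summed over a gene's transcripts. FPKM is scaled by length, so levels can be set side by side between genes. The mouse libraries held 29.3 to 37.5 M aligned reads and the rat libraries 28.2 to 38.5 M, estimated from coverage. Fold changes are on the log2(FPKM + 1) scale, which understates the change of low genes, and were fitted with limma over the 13979 mouse genes at 1 FPKM or more in at least 2 libraries. A gene was called at a Benjamini-Hochberg adjusted p under 0.05 with a log2 fold change above 1 in size. Of the 10 members, 9 passed the filter in mouse and Ccl11 did not. Passing takes a level in 2 libraries, which the higher group alone can give.

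The libraries carried the label cardiomyocyte and held its markers at every time point, but the summed FPKM of 16 cardiomyocyte markers lay between 30200.4 and 39247 at E18.5, 14823.5 and 23806 in the P1 libraries, 8160 and 9814 in those of P3 and 1193 and 2597 in those of P7. All 16 fell from E18.5 to P7, Tnnt2, the cardiac troponin T, from a mean of 6657 to 519.9 FPKM. The 13 fibroblast markers went the other way, with sums of 580.3 to 586.9 at E18.5, 1840 to 2094 in the P1 libraries, 2411 to 2598 in those of P3 and 4093 to 5015 in those of P7, and 13 of 13 rose, with a median log2 fold change of 2.85 beside 0.14 over all tested genes. Smooth muscle and pericyte markers summed to 505.2 to 616.5 at E18.5 and 1739 to 1946 at P7, with 5 of 10 higher and 2 lower. Macrophage and monocyte markers (16 genes) summed to 58.0 to 61.7 at E18.5, 131 to 170.1 in the P1 libraries, 169 to 214 in those of P3 and 125 to 144 in those of P7. Most of the postnatal sums came from the single marker Lyz2, whose mean FPKM was 9.86 (E18.5), 97.6 (P1), 124.0 (P3) and 85.3 (P7). The 12 tested markers of this list had a median log2 fold change of 0.12 for P7 against E18.5. Of these 12, 2 rose and 1 fell, and Ccr2 and Cx3cr1 had means of at most 0.0592 FPKM in every group. Neutrophil markers (12 genes) summed to 23.9 to 37.3 at E18.5, 4.36 to 22.8 in the P1 libraries, 15.8 to 73.1 in those of P3 and 11.4 to 13.1 in those of P7, with 4 of 10 lower and 1 higher, and Ly6g was listed at 0 at P1, P3 and P7. These marker shifts run beside every mouse result below, and their part in the members' changes was not tested. In bulk RNA, fewer cells of a type and less RNA per cell cannot be told apart.

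**Figure D1:**
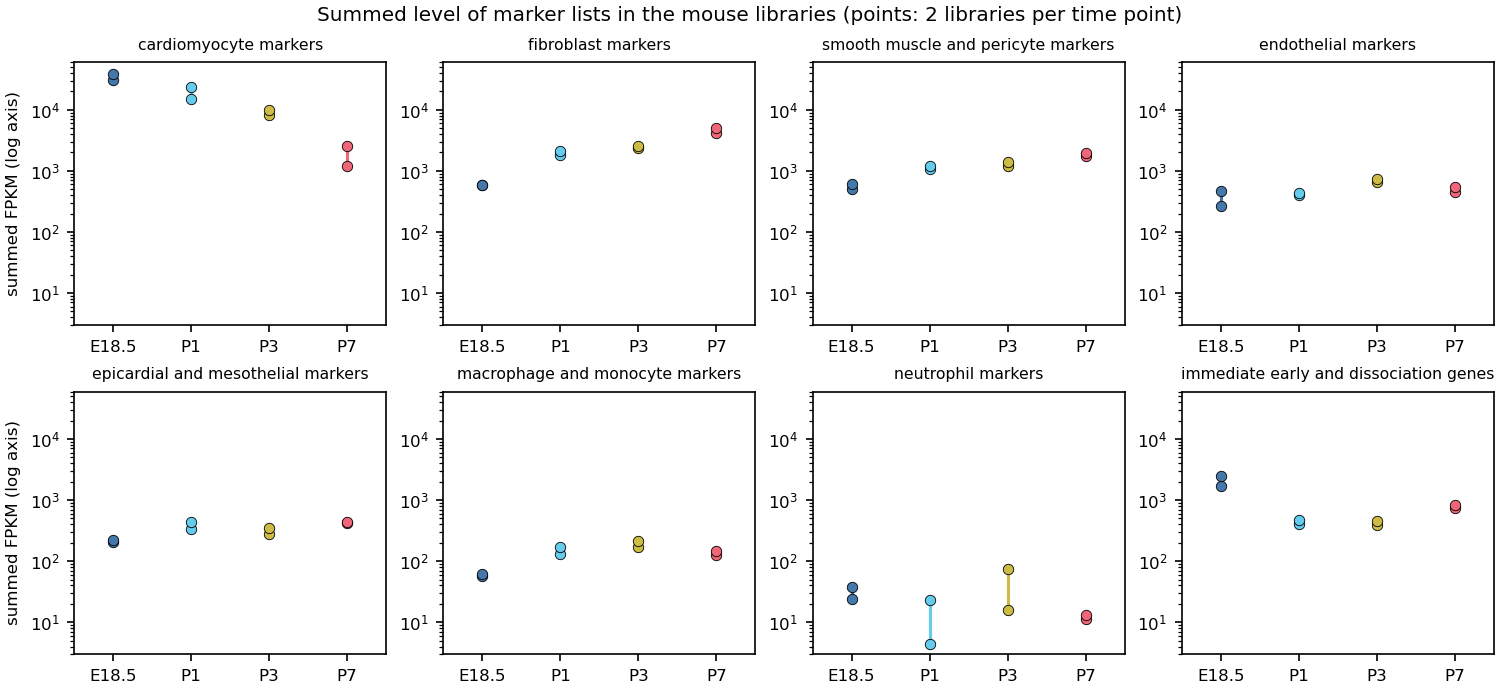
Summed FPKM of 8 marker lists in the mouse RNA-seq libraries, on a log axis, against time point, with a point per library and a line joining the 2 libraries of a time point. Cardiomyocyte markers dropped from 30200.4 or more at E18.5 to 2597 or less at P7 while fibroblast markers climbed from at most 586.9 to at least 4093, and macrophage and neutrophil lists stayed at or under 214.2.

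Before birth, Ccl2 and Cxcl1 were the members with the highest RNA levels, at means of 242.1 and 185.8 FPKM, and their libraries overlapped in level. Ccl7 (78.7) and Cxcl2 (71.1) came next and also overlapped. Cxcl12 followed at 8.20, then Il6 (4.01), Saa3 (3.79), Lcn2 (3.76) and Cxcl5 (3.45), which overlapped as neighbours in that order, and Ccl11 was at 0.174. By P7 the order was Ccl2 (1873), Saa3 (1034), Ccl7 (1017), Cxcl5 (897.7), Cxcl1 (575.8), Lcn2 (122.3), Cxcl2 (86.3), Cxcl12 (77.6), Il6 (46.2) and Ccl11 (0.441). There Saa3 and Ccl7, Ccl7 and Cxcl5, and Cxcl2 and Cxcl12 were the neighbours whose libraries overlapped.

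**Figure D2:**
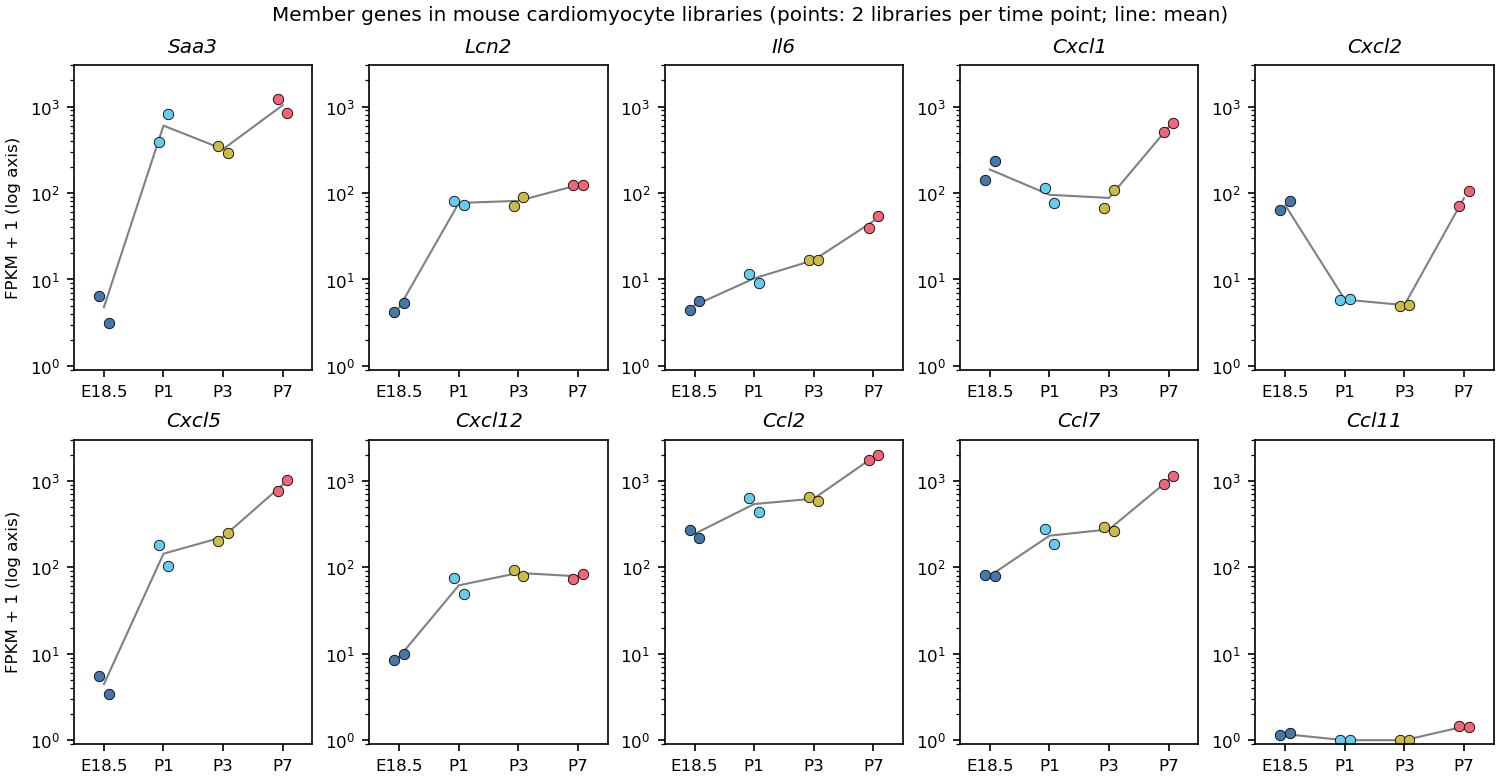
FPKM + 1 of the 10 members on a log axis against time point in the mouse RNA-seq libraries, with a point per library (2 per time point) and a line through the means. Lcn2 and Cxcl12 stepped up by P1, Il6, Ccl2, Ccl7 and Cxcl5 rose again at P7, Cxcl2 and Cxcl1 were lowest at P1 and P3, and Ccl11 stayed under 1 FPKM.

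Compared with E18.5, 5 of the 7 members open to a test were higher at P1 (Lcn2, Il6, Cxcl12, Ccl2 and Ccl7), beside 10.1% of all tested genes, and Cxcl2 was lower, beside 6.06%. At P3 the same 5 were higher, beside 13.0% of all genes, and Cxcl1 and Cxcl2 were lower, beside 8.88%. At P7, 6 of 7 were higher, beside 15.4%, and no member was lower, beside 12.3%. The median log2 fold change of these 7 was 1.13 for P1, 1.75 for P3 and 3.10 for P7, while that of all tested genes was 0.15, 0.16 and 0.14. These comparisons share the 2 E18.5 libraries. The 7 members were also chosen with earlier results of these data known, so the shares of all genes are context and not a test of the set. Between P3 and P1 none of 9 members was called by limma, where 2 had an unadjusted p under 0.05 and limma-voom on estimated reads also called 0, beside 0.0143% of all genes higher and 0% lower. P7 was above P1 in 5 of 7 members (Il6, Cxcl1, Cxcl2, Ccl2 and Ccl7), beside 3.45% of all genes higher and 5.46% lower, and above P3 in the same 5, beside 1.35% higher and 2.20% lower.

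The split of all called genes into higher and lower depended on the scaling. Against E18.5, 62.5% of the genes called for P1 were higher on FPKM, 59.4% of those for P3 and 55.7% of those for P7. With median-of-ratios size factors these shares were 45.7%, 45.7% and 45.5%, and the medians of all genes moved to -0.01, -0.02 and -0.01 in that order. On TPM they were 74.3%, 71.9% and 65.7%, with medians of 0.33, 0.36 and 0.35. No called member changed direction under either scaling.

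Saa3 went from near-absent before birth to among the highest of the 10. It was at 5.43 and 2.14 FPKM in the E18.5 libraries, then at 389.8 and 810.9 in those of P1, 352.1 and 287.9 in those of P3 and 1228 and 839.2 in those of P7. Each postnatal library lay above both E18.5 libraries, and each P7 library above the other six. The mean at P7 was 273 times that at E18.5 (log2 fold change 7.82 ± 0.41, SE), and at P1 it was already 159 times (6.97 ± 0.41). In the comparison open to a test, P3 against P1, the log2 difference was -0.82 ± 0.41 (limma adjusted p = 0.518), although both P3 libraries lay below both P1 libraries, and leaving out P1 replicate 1 or 2 turned it into -1.35 or -0.29. Transcript ENSMUST00000006956.8 of 555 bases carried 97.5% to 99.9% of the gene's FPKM. Saa1, a paralog whose reads can be confused with those of Saa3, had group means of at most 0.0750 FPKM.

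Lcn2, the siderophore-binding lipocalin, had its largest step on the log2 scale between E18.5 and P1 and was higher again at P7. Its libraries read 3.19 and 4.32 FPKM at E18.5, 80.0 and 71.3 in the P1 libraries, 70.5 and 89.8 in those of P3 and 123 and 122 in those of P7. No postnatal library came near the fetal level, P1 and P3 overlapped, and both P7 libraries were above every other. The log2 fold change from E18.5 was 4.02 ± 0.17 for P1 (adjusted p = 1.29e-05), 4.09 ± 0.17 for P3 (8.00e-06) and 4.71 ± 0.17 for P7 (2.93e-06). P7 was above P1 by 0.69 ± 0.17 (adjusted p = 0.0243), under the fold threshold, and above P3 by 0.61 ± 0.17 (adjusted p = 0.0792). Over the 16 alternative fits the P7 value against E18.5 stayed between 4.53 and 5.11.

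Il6, the cytokine that drives the acute phase response, climbed at each step to P7. The FPKM values were 3.39 and 4.63 at E18.5, 10.5 and 8.15 in the P1 libraries, 15.7 and 15.8 in those of P3 and 38.8 and 53.6 in those of P7, with no overlap between any neighbouring time points. Its log2 fold change from E18.5 was 1.04 ± 0.21 for P1 (adjusted p = 0.00525), 1.75 ± 0.21 for P3 (0.000355) and 3.23 ± 0.21 for P7 (1.68e-05). The P1 call rests on the fold threshold: the value was 0.87 with median-of-ratios size factors, 0.86 without E18.5 replicate 1 and 0.88 without P1 replicate 1. P3 exceeded P1 by 0.71 ± 0.21 (adjusted p = 0.281) and P7 exceeded P3 by 1.48 ± 0.21 (adjusted p = 0.0112). The division of its reads among 4 transcripts was unstable, since the leading one carried 26.3% to 60.0% and led in 6 of 8 libraries.

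Cxcl1 and Cxcl2, neighbours in the chromosome 5 cluster and both neutrophil attractants, had a different course from the rest. Cxcl2 stood at 62.3 and 79.9 FPKM at E18.5, 4.78 and 4.94 in the P1 libraries, 3.99 and 4.11 in those of P3 and 69.3 and 103.2 in those of P7. The P1 and P3 libraries sat far below those of E18.5 and P7, which overlapped each other. Cxcl2 fell by 3.61 on the log2 scale at P1 (SE 0.20, adjusted p = 3.66e-05) and by 3.82 at P3 (SE 0.20, adjusted p = 1.77e-05), and was above P3 at P7 by 4.08 ± 0.20 (adjusted p = 0.000498). Between P7 and E18.5 the difference was 0.26 ± 0.20 (adjusted p = 0.306), and -0.025 without P7 replicate 2. Its level at E18.5 was 14.6 times that at P1 and its level at P7 21.3 times that at P3.

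Cxcl1 took a shallower form of that course and ended higher. It read 140.9 and 230.6 FPKM at E18.5, 112.7 and 75.9 in the P1 libraries, 66.2 and 107 in those of P3 and 507.5 and 644.1 in those of P7. P1 and P3 overlapped and lay below E18.5, and both P7 libraries were above all others. The P1 difference was -0.96 ± 0.31 (adjusted p = 0.0402), just under the fold threshold, and passed it with size factors (-1.16), with limma-voom on estimated reads (-1.01), without E18.5 replicate 1 (-1.31) and without P1 replicate 1 (-1.24), but was -0.60 without E18.5 replicate 2. The fall at P3 was -1.09 ± 0.31 (adjusted p = 0.0207) and lost its call on TPM (-0.84), without a filter (adjusted p = 0.0812), without E18.5 replicate 2 (-0.74) and without P3 replicate 1 (-0.74). At P7 Cxcl1 was above E18.5 by 1.66 ± 0.31 (adjusted p = 0.00253), above P1 by 2.61 ± 0.31 (0.00139) and above P3 by 2.75 ± 0.31 (0.00737).

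The drop and return of Cxcl2 was looked for in the other genes too. Of the 13979 tested genes, 41 (0.293%) were called lower at P1 than at E18.5, higher at P7 than at P1, and not called between P7 and E18.5, a shape defined after these values were seen. Cxcl2 was the only member among them, and the gene lists held 8 such genes. From the chemokine and receptor lists these were Cxcl10, a CXC chemokine for T cells (1 of 6 tested), the macrophage chemokine Ccl3 (1 of 12) and the Cxcl12 receptor Cxcr4 (1 of 4). The NF-kB list held the cytokine Tnf and the NF-kB inhibitor Nfkbia (2 of 32). Single genes of further lists were the lipopolysaccharide co-receptor Cd14 (1 of 11), the AP-1 subunit Junb (1 of 13) and the pericyte gene Rgs5 (1 of 10). The remaining lists held none. Cxcl10 was at 195.2 and 172.4 FPKM at E18.5, 6.28 and 13.7 in the P1 libraries, 7.95 and 6.08 in those of P3 and 104.5 and 218.6 in those of P7. Tnf was at 6.77 and 9.91 at E18.5, 0.389 and 0.591 in the P1 libraries, 1.38 and 1.33 in those of P3 and 6.81 and 8.25 in those of P7. Cxcr4 had 17.3 and 10.3 at E18.5, 0.687 and 0.847 in the P1 libraries, 1.85 and 3.83 in those of P3 and 8.71 and 15.6 in those of P7. In each of these 3 genes the P1 libraries were the lowest or overlapped with P3, and those of P7 and E18.5 overlapped. The immediate early and dissociation genes were also lower after birth. Their summed FPKM was 1685 to 2520 at E18.5 and 408.3 to 463.8 in the P1 libraries. It was 383.8 to 459.7 in those of P3 and 732.6 to 842.1 in those of P7. Against E18.5, 11 of 13 were called lower at P1 (beside 6.06% of all genes) and 12 of 13 at P3 (8.88%). At P7, where Cxcl2 was not called and Cxcl1 was higher, 9 of 13 were still lower (12.3%). Fos, the AP-1 subunit, was at -4.17 ± 0.30 there (adjusted p = 2.71e-05) and the heat shock gene Hspa1a at -4.69 ± 0.38 (4.09e-05). The part of these 13 genes in the course of Cxcl1 and Cxcl2 was not tested.

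Cxcl5, the third Cxcr2 ligand of the cluster, did not share the drop. Its libraries gave 4.47 and 2.43 FPKM at E18.5, 182.2 and 102.5 in the P1 libraries, 200.9 and 244.9 in those of P3 and 763.1 and 1032 in those of P7, and no library of a later time point fell below one of an earlier one. The means at P1, P3 and P7 were 41.2, 64.6 and 260.2 times that at E18.5 (log2 fold changes 4.99, 5.68 and 7.68, each ± 0.31). P3 against P1, where a test was open, gave 0.69 ± 0.31 (adjusted p = 0.463), and leaving out P1 replicate 1 or 2 turned it into 1.11 or 0.28.

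Cxcl12, the ligand of Cxcr4, changed once and then held a plateau. It was at 7.51 and 8.89 FPKM at E18.5, 74.0 and 47.6 in the P1 libraries, 91.9 and 78.0 in those of P3 and 72.6 and 82.5 in those of P7. All 6 postnatal libraries were above both fetal ones, and P7 overlapped with P1 and P3. The log2 fold change from E18.5 was 2.72 ± 0.21 for P1 (adjusted p = 9.90e-05), 3.22 ± 0.21 for P3 (3.28e-05) and 3.10 ± 0.21 for P7 (2.24e-05), and P7 differed from P3 by -0.13 ± 0.21 (adjusted p = 0.827; -0.25 without P3 replicate 2 and -0.011 without P3 replicate 1). ENSMUST00000112871.7 of 3132 bases led in 7 of 8 libraries, with 15.6% to 69.6% of the gene's FPKM. Its receptors followed other courses: Ackr3 had mean levels of 10.1 (E18.5) and 9.75 FPKM (P7), and Cxcr4 dipped as given above.

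Ccl2 and Ccl7, the monocyte attractants of the chromosome 11 cluster, moved together with a first rise at P1 and a larger one at P7. Ccl2 had 267.2 and 217.0 FPKM at E18.5, 638.4 and 435.8 in the P1 libraries, 655.1 and 585.1 in those of P3 and 1735 and 2010.5 in those of P7. Ccl7 had 79.5 and 77.9 at E18.5, 278.8 and 182.6 in the P1 libraries, 287.9 and 258.3 in those of P3 and 913.7 and 1121 in those of P7. In both genes P1 and P3 overlapped, with E18.5 below and P7 above them. Ccl2 differed from E18.5 by 1.13 ± 0.20 for P1 (adjusted p = 0.00334), 1.36 ± 0.20 for P3 (0.00102) and 2.95 ± 0.20 for P7 (2.28e-05). The P1 call of Ccl2 fell under the fold threshold with size factors (0.93), without E18.5 replicate 2 (0.98) and without P1 replicate 1 (0.85). Ccl7 differed by 1.51 ± 0.20 (0.000925), 1.78 ± 0.20 (0.000308) and 3.67 ± 0.20 (9.98e-06) at the same times. From P3 to P7, Ccl2 rose by 1.59 ± 0.20 (adjusted p = 0.0105) and Ccl7 by 1.89 ± 0.20 (0.00616). Ccl11, the next gene of the cluster and an eosinophil attractant, read 0.137 and 0.211 FPKM at E18.5, was listed at 0 in the 4 libraries of P1 and P3 and read 0.471 and 0.412 at P7, at most 16.9 estimated reads.

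The P7 against P3 calls were the least stable. They numbered 6 with Cxcl5 counted, 1 without a filter on low values, 1 without P3 replicate 1, 2 without P3 replicate 2 and 3 without P7 replicate 2, with Cxcl2 called in each. The log2 values of Il6, Cxcl1, Ccl2 and Ccl7 in those 3 smaller fits that lost a call lay between 1.25 (Il6 without P7 replicate 2) and 2.40 (Cxcl1 without P3 replicate 1), with adjusted p from 0.0533 to 0.0818.

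**Figure D3:**
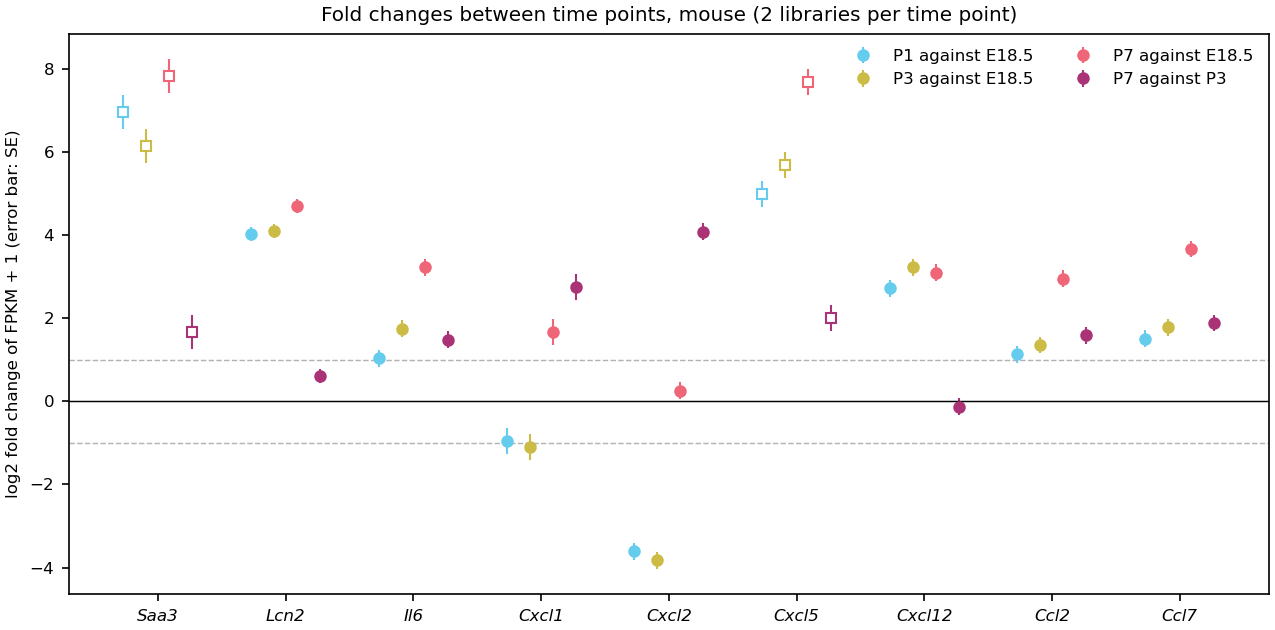
Log2 fold changes of FPKM + 1 with their standard errors for the 9 members that passed the filter, in 4 comparisons of mouse time points; open squares mark values of Saa3 and Cxcl5 that are a description, and dashed lines the fold threshold of 1. Cxcl1 and Cxcl2 were below 0 at P1 and P3, Cxcl12 was near 0 from P3 to P7, and Cxcl2 had the highest value from P3 to P7 (4.08).

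Genes with the most similar course were looked up over the 8 libraries among 1927 tested genes that spanned at least 2 on the log2 scale, the members left out. They are a description, since libraries of a time point share their source. Lcn2 was closest to the fibroblast receptor Pdgfra (Pearson r = 0.998), Twist1 (0.998) and Smpdl3b (0.997). Saa3 was closest to Fads6 (0.992), Egfr (0.989) and Ugt1a7c (0.989), and Cxcl5 to Ust (0.998), Lpar1 (0.998) and Ikbip (0.998). Cxcl12 was closest to Lrrk1 (0.9998), Gm12602 (0.997) and Erg28 (0.997), and Il6 to Foxs1 (0.996), Sod3 (0.995) and Adm (0.994). Outside the members the collagen gene Col11a1 led for both Ccl2 (0.992) and Ccl7 (0.994), which were closer to each other (0.997), followed by Ch25h (0.9898) and Kcnj15 (0.986) for Ccl2 and by Sod3 (0.991) and C430002N11Rik (0.988) for Ccl7. Cxcl1 was closest to 2 other cytokine genes, Csf2 (0.974) and Il1a (0.963), and to Pgf (0.956). Cxcl2 was closest to Cxcl10 (0.985), Mfap4 (0.973) and the interferon-induced Gbp2 (0.968).

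Other genes of the same pathways were read from lists for P7 against E18.5, beside the 15.4% of all genes called higher and 12.3% lower. The lists were chosen with earlier results of these data known, so their counts are a description. Of 11 tested acute phase genes beyond the members, 8 rose and none fell, with a median log2 fold change of 1.44. Ptx3, a long pentraxin, rose from a mean of 5.81 to 425.0 FPKM (5.97 ± 0.39, adjusted p = 1.80e-05). Haptoglobin (Hp) rose from 1.53 to 137.1 (5.79 ± 0.26, 5.34e-06), the protease inhibitor Serpina3n from 1.36 to 93.1 (5.31 ± 0.50, 7.47e-05) and ceruloplasmin (Cp) from 3.09 to 59.3 (3.88 ± 0.17, 4.72e-06). Of the list of CXC chemokines beyond the members, which also held the CX3C chemokine Cx3cl1, 6 were tested, 4 rose and none fell (median 1.56, Cx3cl1 included at -0.39 ± 0.42, adjusted p = 0.455): the platelet chemokines Pf4 (2.57 ± 0.27) and Ppbp (1.74 ± 0.33), the Cxcr2 ligand Cxcl3 (2.13 ± 0.38) and Cxcl16 (1.37 ± 0.15). Of 12 CC chemokines, 4 rose and 4 fell (median 0.48), with Ccl6 at 4.56 ± 0.51, Ccl20 at 2.65 ± 0.45, Ccl9 at 2.25 ± 0.27 and the lymphoid Ccl21a at -2.40 ± 0.26. Of the chemokine receptors 4 of 17 measured passed the filter, and the scavenging receptor Ackr1 was the 1 that rose, by 3.46 ± 0.38, from 0.928 to 20.0 FPKM. Cxcr2 and Ccr2, receptors of the neutrophil and monocyte attractants above, did not pass the filter, with means of at most 0.245 and 0.0565 FPKM.

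Genes of the NF-kB and IL6 pathways moved in both directions for P7 against E18.5, beside 15.4% of all genes called higher and 12.3% lower. Among 32 tested NF-kB, IL1 and C/EBP regulators 10 rose and 3 fell, with a median log2 fold change of 0.37. The 3 that fell were Zfp36 (-1.71 ± 0.15, adjusted p = 5.52e-05), Il1b (-1.28 ± 0.23, 0.00181) and Rel (-1.16 ± 0.17, 0.000698). The IL1 receptor Il1r1 rose by 2.67 ± 0.28 (adjusted p = 0.000136), the Tnf receptor Tnfrsf1a by 2.08 ± 0.28 (0.000472), the ribonuclease Zc3h12a, which degrades Il6 mRNA, by 2.13 ± 0.16 (3.20e-05) and the inhibitory kinase Irak3 by 1.81 ± 0.29 (0.00114). Among 14 tested genes of IL6 family signalling 4 rose and 1 fell (median 0.85), namely Lif (2.25 ± 0.26), the receptor Osmr (1.76 ± 0.29), Bcl3 (1.42 ± 0.29) and Il6ra (1.01) as higher and the kinase Pim1 (-1.67 ± 0.34) as lower. Endothelial markers had 2 of 10 higher and 1 lower, and epicardial and mesothelial markers 3 of 11 higher.

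Open chromatin at the members was read from ATAC-seq peak lists, as peaks whose midpoint lay within 2.5 kb of a transcript start. The lists differed in length: 13149 and 14910 peaks for the fetal libraries, 29281 and 19753 for P1, 95257 and 52040 for P3 and 49113 and 35898 for P7. A gain of peaks with time cannot be told apart from the longer lists. Peak names carry the same library prefix in the lists of E18.5 replicate 1 and P7 replicate 1, but these lists shared 1 identical interval. Peaks in both libraries were found at 1 member at E18.5 (Cxcl1), beside 37.1% of 21951 protein-coding genes, at 1 at P1 (Cxcl12), beside 27.1%, at 5 at P3 (Il6, Cxcl1, Cxcl12, Ccl2 and Ccl7), beside 62.7%, and at the same 5 at P7, beside 57.3%. Il6 and Ccl7 had a peak in both libraries of P7 and neither of E18.5, 2 of 10 members beside 10.2% of genes. The same 2 met that rule for P3, beside 14.9%, and no member met it for P1, beside 1.16%. With a window of 1 kb, Ccl2 met it too, which gave 3 of 10 for P7, beside 9.28%, and 3 for P3, beside 13.2%. With the 13149 peaks of highest score in every list, the count at P7 was 0 of 10, beside 29.6% of genes, and at P3 it was 1 (Ccl7), beside 24.4%, so most postnatal peaks of the members lay outside the 13149 highest of their lists.

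Saa3, Lcn2 and Ccl11 had no promoter peak in any of the 8 lists, although Saa3 and Lcn2 had the highest and the third highest ratio of P7 to E18.5 RNA among the members. With a window of 5 kb, Saa3 and Lcn2 had a peak in both P3 and both P7 libraries, and Saa3 also in both E18.5 libraries. At Il6 a peak stood in P1 replicate 1 (fold enrichment 6.82), in P3 (7.53 and 8.12) and in P7 (5.89 and 5.16). These peaks spanned the NF-kB, C/EBP and AP-1 matches shown above in 3 libraries, both of P3 and replicate 1 of P7. In P7 replicate 2 the peak named lay after the RefSeq start, and the other promoter peak of that library spanned the C/EBP and AP-1 matches but not the NF-kB match. At Cxcl1 a peak stood in 7 of 8 libraries, with fold enrichments of 7.37 and 5.39 at E18.5, 4.11 in P1 replicate 1, 7.58 and 8.31 in the P3 libraries and 5.61 and 6.43 in those of P7, and it spanned the NF-kB match in the 6 libraries of E18.5, P3 and P7. At P3, when Cxcl1 RNA was low, its fold enrichments were above those of P7, but the median fold enrichment of all peaks was also higher in the P3 lists (4.998 and 6.004) than in those of P7 (4.571 and 4.352). By rank within its own list, the Cxcl1 peak was above 79.2% and 75.1% of peaks by score in the P3 libraries and above 62.9% and 87.8% in those of P7. Neither comparison was tested. Cxcl2 had a peak in E18.5 replicate 2 (4.95) and in P3 replicate 1 (4.69), both over its NF-kB match, and none at P7. Cxcl5 had one in P3 replicate 1 (4.46) and in P7 replicate 2 (3.42). Ccl7 had none at E18.5, 1 in P1 replicate 1 (5.13), and one in each library of P3 (8.14 and 8.75) and P7 (4.57 and 3.65). Cxcl12 had a peak in 7 libraries and Ccl2 in 6.

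**Figure D4:**
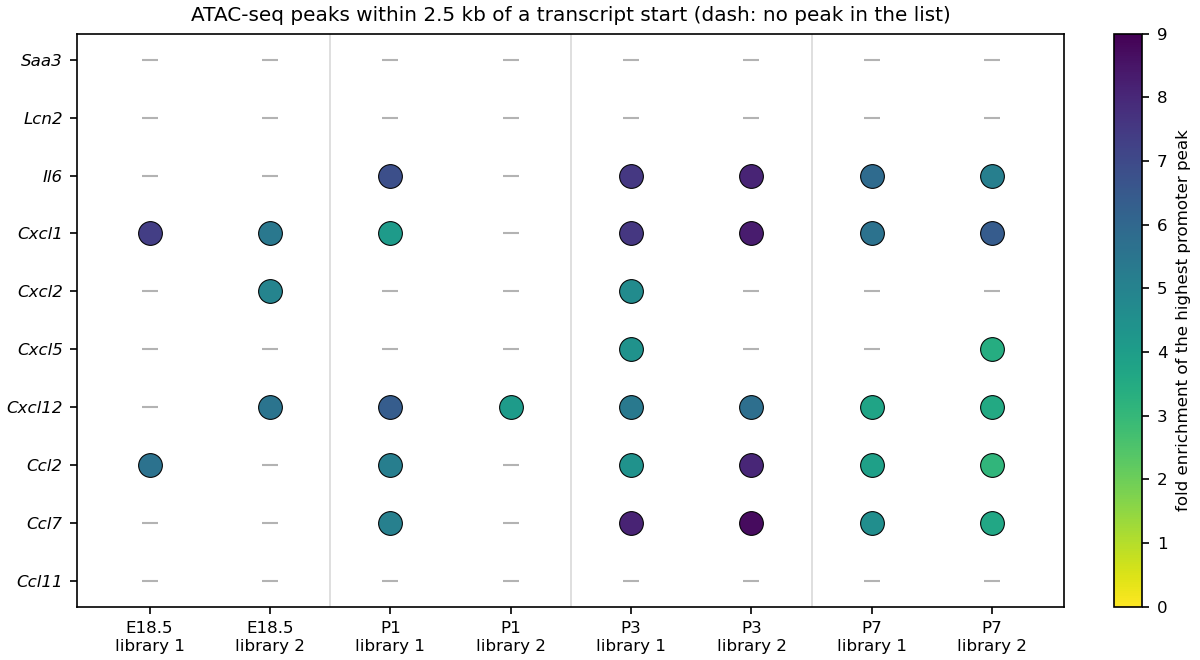
Promoter peaks of the 10 members in the 8 mouse ATAC-seq peak lists; a circle marks a peak within 2.5 kb of a transcript start, its colour the fold enrichment of the highest such peak, and a dash the absence of a peak from that list. Saa3, Lcn2 and Ccl11 have no circle, and Cxcl1 lacks one in P1 replicate 2 only.

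The surrounding 50 kb held further peaks, for which no share over all genes was counted. A gain of such regions after E18.5 cannot be told apart from the longer postnatal lists. Around Ccl2, 16 merged regions were found over the 8 lists, of which 9 were present in both P3 libraries, 6 in both P7 libraries and none in both E18.5 libraries, and 5 were in both P7 and neither E18.5 library. These 16 were also the regions around Ccl7 and took in its promoter peak, so they belong to the cluster and not to Ccl2 alone. Around Lcn2 there were 13 regions, 8 of them in both P7 libraries and 3 in both E18.5 libraries, with 1 in every list. Around Cxcl1 there were 10, the same as around Cxcl2, of which 3 were in both P7 libraries. Around Cxcl5 there were 9, none of them in both P7 libraries. With the 13149 highest peaks per list, regions in both P7 and neither E18.5 library numbered 1 around Ccl2, 1 around Lcn2 and 1 around Cxcl1.

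In rat cardiomyocytes the comparison of TSA with DMSO asked how inhibition of histone deacetylases changed these genes. Of the 8 members in the rat files, 5 passed the filter of 1 FPKM in at least 3 libraries, and limma called none of them, beside 1.81% of 13625 genes higher and 0.316% lower. Limma-voom on estimated reads also called 0, and 1 member, Lcn2, had an unadjusted p under 0.05. Lcn2 was at 2.89, 6.33 and 1.31 FPKM with DMSO and 7.89, 5.30 and 12.9 with TSA, a log2 difference of 1.19 ± 0.46 (adjusted p = 0.213). One TSA library lay below the highest DMSO library, so the groups overlapped. Cxcl12 was at 10.2, 11.1 and 3.48 with DMSO and 6.46, 4.10 and 3.57 with TSA, a difference of -0.60 ± 0.40 (adjusted p = 0.472). Ccl2 was the highest member in the rat cultures, at 36.0, 46.3 and 26.2 with DMSO and 47.9, 38.9 and 30.7 with TSA (0.13 ± 0.24, adjusted p = 0.826). Ccl7 was at 14.3, 17.3 and 5.76 against 18.5, 11.7 and 7.41 (0.05 ± 0.44, adjusted p = 0.967), and Cxcl1 at 9.87, 12.2 and 2.89 against 9.15, 6.84 and 9.31 (0.19 ± 0.44, adjusted p = 0.863).

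DMSO replicate 3 had the lowest DMSO value of all 5 tested members. Without it the differences became -0.35 for Cxcl1, -0.081 for Ccl2 and -0.39 for Ccl7, so their direction depended on single libraries. Without TSA replicate 1, Ccl2 (-0.026) and Ccl7 (-0.26) also turned below 0. Without DMSO replicate 3, Cxcl12 moved from -0.60 to -1.06 and Lcn2 from 1.19 to 0.78, and no member was called. Il6, Cxcl2 and Ccl11 stayed under 1 FPKM in every rat library, at most 0.147, 0.781 and 0.210, and were not tested. Among rat pathway genes outside the members, the chemokines Ccl12 (1.64 ± 0.30, adjusted p = 0.0360) and Ccl6 (1.32 ± 0.21, 0.0253) rose with TSA, 2 of 6 tested CC chemokines. Ccl6 had means of 0.455 FPKM with DMSO and 2.57 with TSA, so the higher group alone could give its pass of the filter. The acute phase genes Hamp, which encodes the iron hormone hepcidin (-2.12 ± 0.30, adjusted p = 0.0171), and Lbp (-1.01 ± 0.18, 0.0329) fell, 2 of 8 tested. No gene of the CXC (6 tested, Cx3cl1 among them), receptor (5), IL6 family (13) or NF-kB (31) lists was called. In the rat marker lists 1 macrophage gene, C1qc, rose by 1.61 ± 0.25 and 1 fibroblast gene, Thy1, by 2.24 ± 0.32, but the medians of these lists were -0.84 over 11 and -0.29 over 12 tested genes, beside 0.03 over all tested genes. Summed fibroblast markers were lower with TSA, at 7142 to 8220 FPKM with DMSO and 4234 to 6735 with TSA, with no overlap. Most of that sum was Col1a1 (means 3220 with DMSO and 2432 with TSA) and Col3a1 (2424 and 1712). No fibroblast gene was called lower, and Dcn (0.28 ± 0.29), Lum (0.07 ± 0.30) and Pdgfra (0.12 ± 0.30) had log2 differences above 0. Summed macrophage markers were 540 to 1153 FPKM with DMSO and 463 to 619 with TSA, and cardiomyocyte markers 16007.5 to 25566 and 14246.9 to 36906.5, with none of 15 called. Of the other lists, 1 of 9 epicardial genes (Upk1b, 1.27 ± 0.26) and 1 of 10 smooth muscle and pericyte genes (Rgs5, 1.80 ± 0.18) rose, none of 8 endothelial or 11 immediate early genes was called, and no neutrophil marker passed the filter. The part of these lists in the members' values was not tested.

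**Figure D5:**
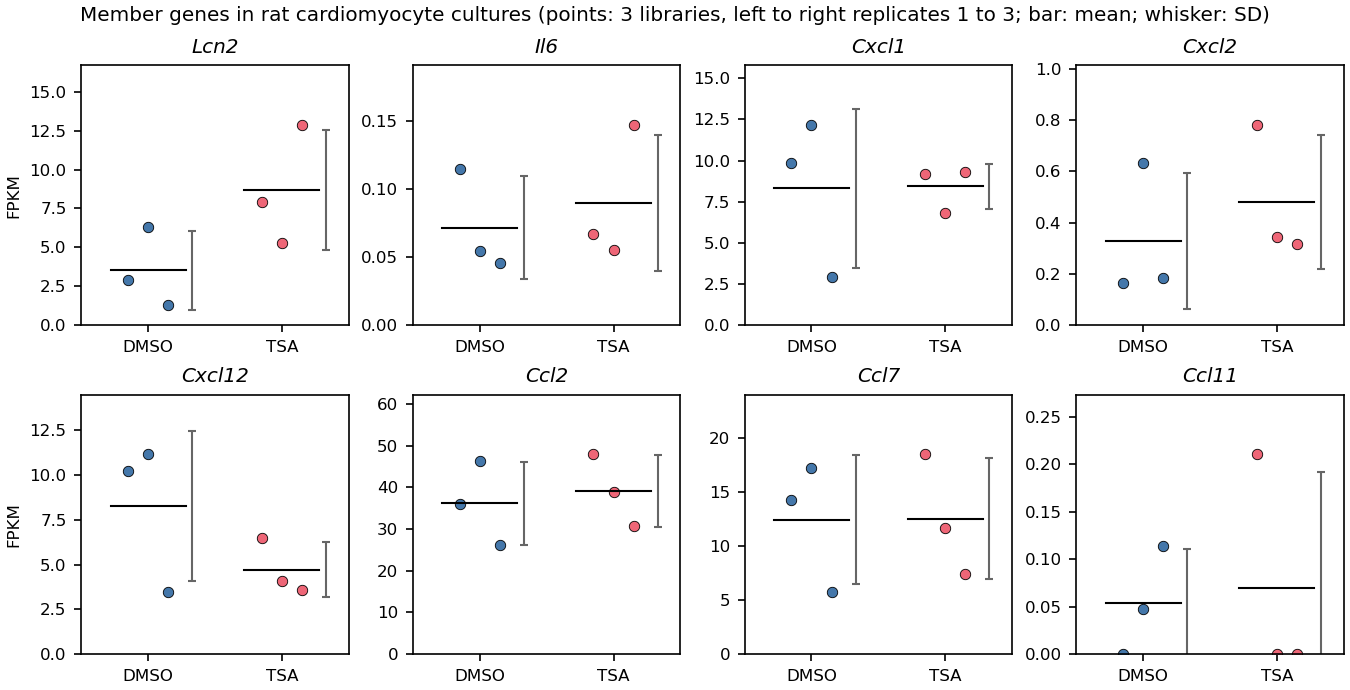
FPKM of the 8 members found in the rat files in 3 DMSO and 3 TSA libraries, with a point per library, a bar at the mean and a whisker of 1 SD; each panel has its own axis from 0. The groups overlap in every panel, and DMSO replicate 3 is the lowest DMSO point in the panels of Lcn2, Cxcl1, Cxcl12, Ccl2 and Ccl7.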

How the data were processed

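The data were read as deposited. For RNA, the authors aligned reads with HISAT2 (version 2.1.0) to mm10 or rn6 and, per the file headers, ran StringTie (1.3.5 for mouse, 1.3.4d for rat) on GENCODE or Ensembl annotation, which gives per transcript the coverage, FPKM and TPM. The deposited ATAC-seq lists are MACS2 peaks called per library after Bowtie2 alignment and duplicate removal, with a score, a fold enrichment ratio over local background and −log10 p and q values set by the authors. FPKM was summed over a gene's transcripts here, and aligned reads (28.2 to 38.5 M per library, mouse and rat) were estimated from coverage. Tests used limma 3.58.1 in R 4.3.3 on log2(FPKM + 1) with all time points in 1 fit, and were tested on simulated data. Alternatives were a pseudocount of 0.1, no filter, a mean of at least 5 FPKM, TPM, median-of-ratios scaling, limma-voom, a replicate block, the compared time points alone and leaving out each library, and for peaks other windows, starts and list lengths. In rat, the deviations of same-numbered libraries correlated with r from 0.194 to 0.346. Differently numbered libraries were not compared and the labels state no pairing, so whether the numbers pair them is not known. The rat p-values given are from the fit without pairing, and the replicate block called 0 members as well. Members and gene lists were chosen with earlier results of these data known. Named genes are the 10 members, at most 4 called genes per list by size of change, and the 3 nearest genes by likeness. Also named are defining markers of other cell types, genes with the drop of Cxcl2 and some further genes of the lists. HiChIP samples were not analysed here.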

Additional observations from a re-analysis of the deposited data

How the results depend on the processing

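Leaving out 1 library at a time gave 7 to 8 called members for P1 against E18.5 (8 with Saa3 and Cxcl5 counted), 8 to 9 for P3 (9), 8 for P7 (8), 0 for P3 against P1, 6 for P7 against P1 (6) and 1 to 7 for P7 against P3 (6). In these fits the lone library of a group is assumed to vary like the others. Counts that involve E18.5 or P7 libraries take in Saa3 and Cxcl5, which were picked for their P7 rise. They describe how stable the calls were and are no test of the set. P7 against P3 also gave 1 without a filter on low values, where many more genes are tested. Members with a promoter peak in both libraries numbered 0 at E18.5, 0 at P1 and 2 at P7 with the upper 0.5 of each list by score, 0 at P1, 1 at P3 and 0 at P7 with equal numbers of top peaks, and 2 at E18.5 within 5 kb. For peaks in both P7 and neither E18.5 library the count was 1 with the upper 0.5, 0 with equal numbers and 3 within 1 kb. For P3 it was 3 with the upper 0.5, 1 with equal numbers and 3 within 1 kb. Read from the remaining library alone, a choice added after seeing the data, counts were 2 to 3 at E18.5, 1 to 5 at P1, 5 to 7 at P3 and 5 to 6 at P7, and 0 to 2 for P1 and not E18.5. Signs turned in tests that were not called. The leave-one-out log2 ranges were -0.025 to 0.54 for Cxcl2 at P7 against E18.5, and for P3 against P1 they were -0.48 to 0.21 for Cxcl1, -0.10 to 0.25 for Lcn2, -0.044 to 0.51 for Ccl2 and -0.032 to 0.58 for Ccl7. In rat they were -0.35 to 0.53 for Cxcl1, -0.081 to 0.32 for Ccl2 and -0.39 to 0.35 for Ccl7, which was also -0.016 on TPM. The cause was not tested. Of 769 alternatives of single tested genes 729 kept direction and call. Mouse replicate numbers are shared only as a number. Deviations of same-numbered libraries correlated from -0.096 to 0.171 between time points. With 2 libraries per time point, both replicate numbers must give the same correlation, so each comparison of time points holds only 1 value. The replicate block left the member counts at 8, 9, 8, 0, 6 and 6. With all genes the replicate block gave 447 calls in place of 496 for P7 against P3. The peak lists hold no read counts, which limits the precision of peak heights, and heights were not tested.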
